A study of Mus musculus with 3 samples.

Results

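The 44 genes described here are those whose symbols mark them as members of the mouse chloride channel families, taken by name from the 24346 gene symbols in the deposited tables. They are 9 CLC genes, 5 CLIC genes, 10 anoctamins (Ano), 3 bestrophins (Best), 5 LRRC8 genes, 3 tweety homologues (Ttyh) and 7 CLCA genes, together with the accessory genes Bsnd and Clns1a. Clca1 was left out by the rule. The naming rule uses no measured value, though it was set with earlier results of these data known. The tissue was distal colon of wild-type mice, 8 weeks old and at steady state, rinsed with buffered saline and frozen; the strain field reads JAX, and no allele or agent is named. Polyadenylated RNA was sequenced, and 3 files, numbered as replicates 1, 2 and 3 in the titles, form the only group, so there is no contrast between conditions. The labels do not say that the files came from separate animals.

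Chloride leaves a colonic epithelial cell through channels of the apical membrane and enters it from the blood side with sodium and potassium, and water follows. The families named for chloride channels do many other things as well. The CLC genes encode plasma membrane channels and chloride-proton exchangers of endosomes and lysosomes, anoctamins encode calcium-activated channels and lipid scramblases, and bestrophins encode calcium-activated anion channels. LRRC8 proteins together form the anion channel that opens when a cell swells. CLIC proteins are largely soluble and have a glutathione transferase fold, and CLCA proteins carry a metalloprotease domain. Whether tweety homologues form a pore is disputed. A family name is therefore no statement of what a protein carries.

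The values are FPKM, fragments scaled to the length of the transcript and to the number of mapped fragments, summed over the isoforms of a gene. FPKM is scaled to length, so levels of different genes can be set side by side. Depth, worked out from the width of the deposited bounds, came to 3.78e+06, 3.79e+06 and 1.24e+06 mapped fragments in replicates 1, 2 and 3, of which about 7845, 7874 and 2599.8 fell to the 44 genes. Over 8771 genes of 1 isoform with a mean of at least 1 FPKM, the median ratio of the variance between files to the sampling variance was 0.675, where sampling noise alone gives 0.693. The files differed by less than the sampling noise and were counted as 1 sample. Each error below is the SD of the 3 files, a measurement error that holds no spread between animals. With so few files such an SD can fall below the counting error by luck. The ranges compared below are of the 3 listed values and leave out the deposited bounds. Ranges that are apart are therefore no test of a difference. The tissue label was borne out by Hoxb13 at 195 ± 0.610 FPKM and Hoxd13 at 97.9 ± 2.29 FPKM, transcription factor genes of the hindgut. All 5 absorptive colonocyte and all 5 goblet cell markers reached 1 FPKM in every file, beside 48.5% of all gene symbols.

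Of the 44 genes, 29 (65.9%) reached 1 FPKM in every file, against 48.5% of all gene symbols, and 15 reached 10 FPKM, against 21.4%. A further 5 genes were listed at 0 in every file, against 29.9% of all symbols, and 10 lay between. The median of the 44 means was 2.43 FPKM, beside 1.25 FPKM over all symbols. The 44 genes summed to 647, 649 and 652 FPKM in replicates 1, 2 and 3, or 0.152% of all FPKM. The 4 highest genes, Clic1, Clic5, Clca3b and Ano1, held 52.7% of that sum. The tissue is a mixture of epithelium, muscle, nerve and stroma, and in such bulk RNA fewer cells of a type and less RNA per cell cannot be told apart.

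**Figure D1:**
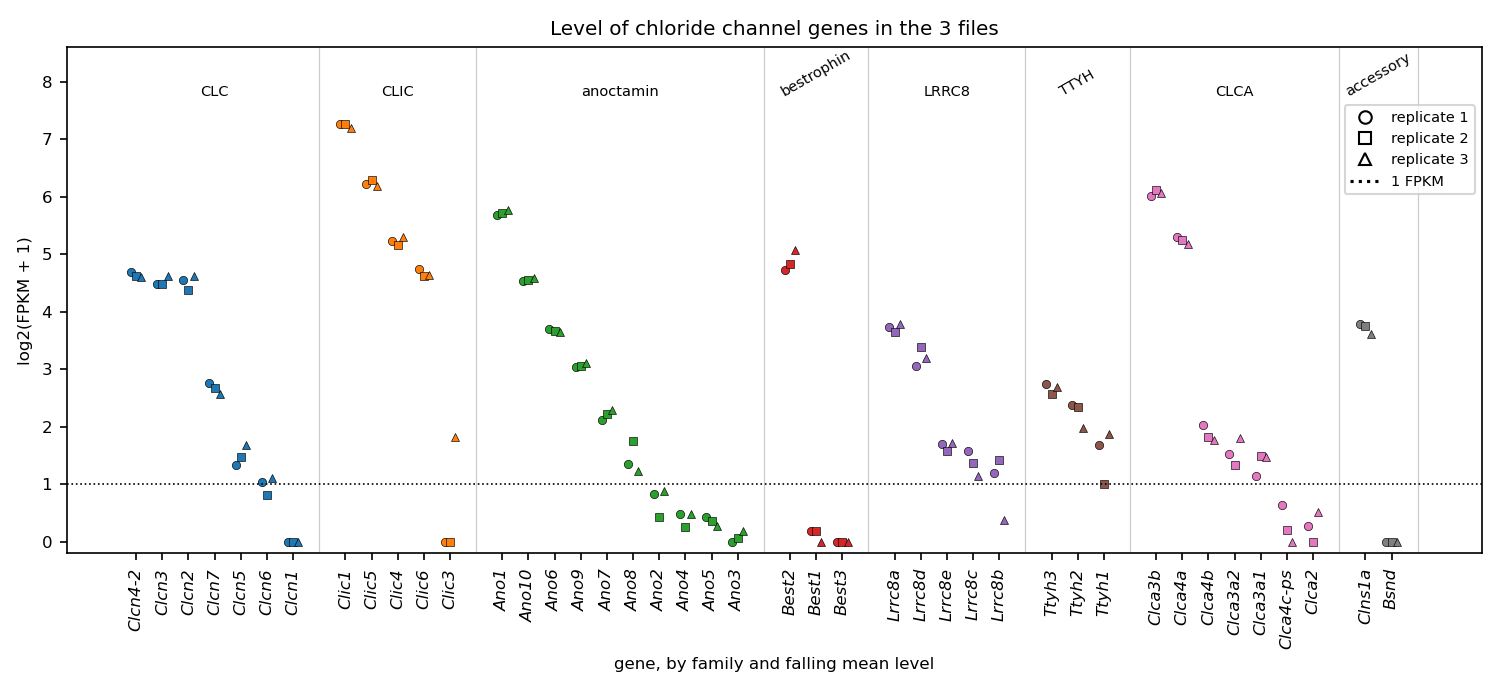
Level of the genes reported here as log2(FPKM + 1), 1 point for each of the 3 files, grouped by family and ordered by mean level; the dotted line marks 1 FPKM. Clic1 stands highest at 146 to 153 FPKM, the levels within CLIC, CLCA, CLC and anoctamins fall over a wide range, and Clcn1, Best3 and Bsnd lie at 0 in every file.

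The CLIC genes held the largest share of the summed FPKM, 44.1% ± 0.662, with family sums of 288, 289 and 283 FPKM in replicates 1, 2 and 3. CLCA genes followed with 16.9% ± 0.245, anoctamins with 15.4% ± 0.280 and CLC genes with 11.7% ± 0.460. Clca1, left out by the rule, stood at 880 ± 4.47 FPKM, above the sum of all members. Both the first place of the CLIC genes and the lead of Clca3b among CLCA genes hold only without it. Bestrophins held 4.39% ± 0.537, LRRC8 genes 3.91% ± 0.131, the accessory genes 1.88% ± 0.141 and tweety homologues 1.70% ± 0.159. The ranges of the family sums over the files overlapped between bestrophins and LRRC8 genes and between accessory genes and tweety homologues, and were apart between the other neighbours in this order. The main member was Clic1 among CLIC genes, Clca3b among CLCA genes, Ano1 among anoctamins, Best2 among bestrophins, Lrrc8a among LRRC8 genes, Ttyh3 among tweety homologues and Clns1a of the accessory pair. The CLC family had no single leader, since Clcn4-2, Clcn3 and Clcn2 overlapped in range.

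**Figure D2:**
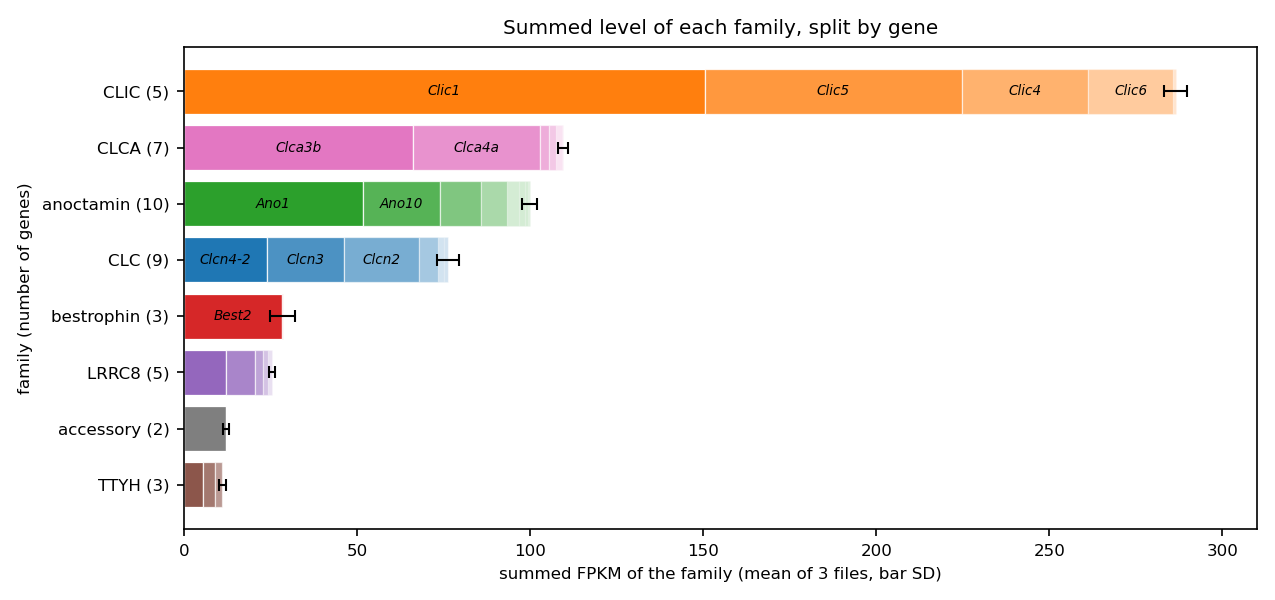
Summed FPKM of each family as the mean of the 3 files, with the SD as a bar and the family split into its genes, the main member at the left. The CLIC bar reaches 287 FPKM and is the longest, Best2 fills nearly all of the bestrophin bar, and the CLC bar is divided among Clcn4-2, Clcn3 and Clcn2. The CLCA bar leaves out Clca1, which alone stood at 880 FPKM.

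Within the CLIC family, 4 of 5 genes stood above 20 FPKM and 1 was close to undetected. Clic1, which encodes a small soluble protein that can insert into membranes (GRCm38 chromosome 17, 35050243 to 35058719), stood at 152, 153 and 146 FPKM in replicates 1, 2 and 3, a mean of 150.5 ± 3.82, and ranked 399th among all symbols. It held 52.5% ± 0.717 of the family. Clic5, whose protein is tied to the actin core of microvilli and of inner ear stereocilia (chromosome 17, 44188572 to 44280168), stood at 73.9, 77.4 and 71.6 FPKM. Clic1 was 2.03 ± 0.0391 times as high, and the ranges of these genes were far apart. Clic4, a relative of Clic1 found in many tissues, stood at 36.5, 34.6 and 38.3 FPKM, and Clic6, with a long repeat region ahead of the shared fold, at 25.7, 23.6 and 24.0 FPKM. No range of these 4 genes overlapped that of its neighbour. Clic3 was listed at 0 in replicates 1 and 2 and at 2.53 FPKM in replicate 3, the shallowest file, where its 799-base transcript was given about 2 fragments. Its level therefore rests on 1 file. In the chi-square test between files it was outside the genes tested, and with no filter on low values its adjusted p was 0.691 (unadjusted 0.00243).

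The CLCA genes lie side by side on chromosome 3, and their levels were uneven along the cluster, high at Clca3b and Clca4a and low at the other members. In genomic order the means were 1.62 ± 0.339 FPKM for Clca3a1, 1.96 ± 0.497 for Clca3a2, 66.0 ± 2.29 for Clca3b, 0.241 ± 0.289 for the pseudogene Clca4c-ps, 2.67 ± 0.359 for Clca4b, 36.9 ± 1.47 for Clca4a and 0.213 ± 0.214 for Clca2. Clca1, the goblet cell gene that the rule leaves out, lies between Clca4a and Clca2 in the same 369365 bases, and its level was 13.3 ± 0.399 times that of Clca3b. Clca3b (144822624 to 144849302) stood at 63.6, 68.2 and 66.2 FPKM in replicates 1, 2 and 3 and held 60.2% ± 1.53 of the family's sum. Clca4a (144952486 to 144975045) stood at 38.2, 37.1 and 35.3 FPKM. The files were apart for these genes, with Clca3b 1.79 ± 0.113 times as high. The RefSeq table gives Clca4 as another name of both Clca3b and Clca4a, and Clca6 as one of Clca4a. From Clca3b to its neighbour Clca3a2 is a gap of 3129 bases, and their levels ranged from 63.6 to 68.2 FPKM against 1.51 to 2.50 FPKM. Clca3a1 and Clca3a2 share a stretch of 1391 bases at 97.6% identity, so the division of fragments between these genes is uncertain, and their ranges overlapped. Clca4c-ps was given fewer than 2 fragments over the 3 files and Clca2 about 5, so neither level is well measured. Exons of Clca4a overlap an antisense gene over 334 of 3004 bases. The sources used here do not say whether the counting used strand, so reads of overlapping genes on opposite strands cannot be told apart.

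**Figure D3:**
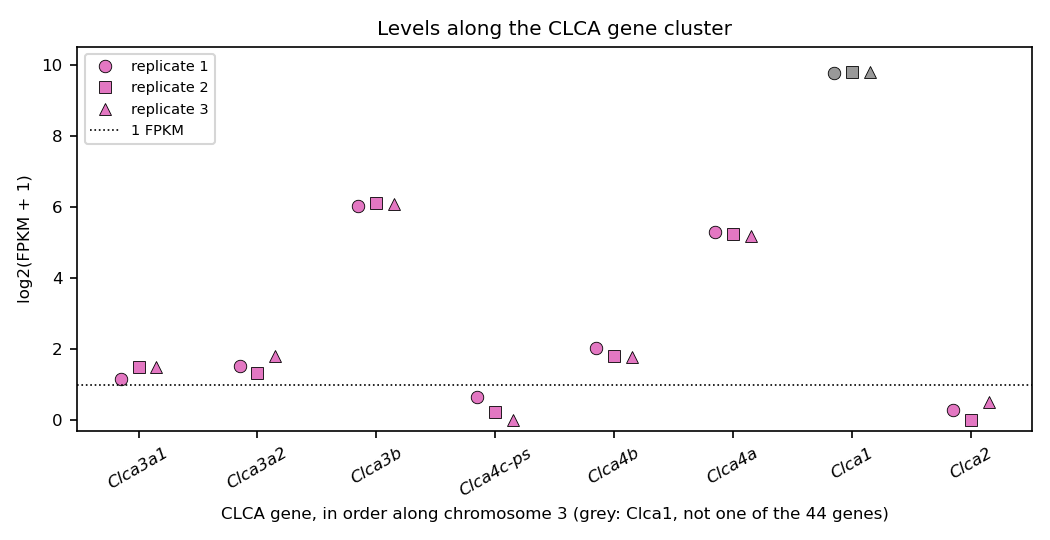
Level of the CLCA genes as log2(FPKM + 1) in their order along chromosome 3, 1 point per file; the dotted line marks 1 FPKM and grey points show Clca1, which is not one of the 44 genes. Clca3b and Clca4a stand at 63.6 to 68.2 and 35.3 to 38.2 FPKM, and no other member exceeds 3.08 FPKM.

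Among the anoctamins 6 of 10 reached 1 FPKM in every file and the other 4 were detected at lower levels. Ano1, the calcium-activated chloride channel of gut pacemaker cells and of secretory epithelia (chromosome 7, 144588549 to 144738592), stood at 50.2, 51.3 and 53.3 FPKM in replicates 1, 2 and 3 and made up 51.6% ± 0.419 of the family. Ano10, a protein of the endoplasmic reticulum whose loss causes ataxia in humans (chromosome 9, 122175874 to 122294423), stood at 22.1, 22.4 and 23.0 FPKM. Ano1 was 2.29 ± 0.0217 times as high. Ano10 was given about 208, 209 and 70.0 fragments in replicates 1, 2 and 3, so the counting error of this ratio is larger than that SD. Ano6, the calcium-activated lipid scramblase of platelets and other cells, stood at 12.0, 11.6 and 11.6 FPKM. The ranges of these 3 genes were apart. Ano6 had the narrowest relative spread of the 15 genes that reached 10 FPKM, an SD of 1.97% of the mean. This is below its counting error, since its ratio of variance between files to sampling variance was 0.0832. Ano9 followed at 7.40 ± 0.199 FPKM, Ano7 at 3.64 ± 0.259 FPKM and Ano8, which tethers the endoplasmic reticulum to the plasma membrane, at 1.75 ± 0.535 FPKM. Ano2, the channel of olfactory neurons, stood at 0.660 ± 0.270 FPKM, Ano4 at 0.336 ± 0.118 FPKM, the muscle disease gene Ano5 at 0.283 ± 0.0678 FPKM and the brain-expressed Ano3 at 0.0607 ± 0.0699 FPKM. About 20 fragments in all were given to each of Ano2 and Ano5 and 2 to Ano3, and the ranges of Ano2, Ano4 and Ano5 overlapped from one to the next. Of 4 marker genes of interstitial cells of Cajal, the pacemaker cells, 3 reached 1 FPKM in every file, beside 48.5% of all gene symbols. These were Kit at 8.99 ± 0.532 FPKM, Etv1 at 4.69 ± 0.491 FPKM and Thbs4 at 103 ± 2.86 FPKM, and Hcn4 was listed at 0. Their sum ranged from 114 to 118 FPKM and was mostly Thbs4, and their part in the level of Ano1 was not tested. Exons of Ano6 overlap an antisense gene over 214 of 12269 bases.

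The means of the CLC genes ranged from 23.9 FPKM to 0. At the top, Clcn4-2 stood at 24.7, 23.6 and 23.4 FPKM in replicates 1, 2 and 3 (chromosome 7, 7282309 to 7300851), Clcn3 at 21.5, 21.5 and 23.6 FPKM (chromosome 8, 60910389 to 60983311) and Clcn2 at 22.4, 19.7 and 23.6 FPKM (chromosome 16, 20702966 to 20716636). These ranges overlapped, and Clcn4-2 held 31.4% ± 1.56 of the family. When only the highest isoform of each gene was taken, Clcn2, which has 1 isoform, led at 21.9 FPKM, ahead of the highest isoforms of Clcn3 at 15.2 FPKM and of Clcn4-2 at 12.9 FPKM. Clcn3 and Clcn4-2 encode chloride-proton exchangers of endosomes, while Clcn2 encodes a channel of the plasma membrane. Below them, each apart from the next in range, came Clcn7, the lysosomal exchanger, at 5.38 ± 0.409 FPKM, Clcn5, the endosomal exchanger mutated in Dent disease, at 1.85 ± 0.347 FPKM and Clcn6, an exchanger of late endosomes, at 1.06, 0.770 and 1.17 FPKM. The deposited bounds of Clcn6 and of the highest isoform of Clcn5 overlapped in every file, at 0.420 to 1.70 and 0.847 to 2.22 FPKM in replicate 1. Those of Clcn7 and of that isoform overlapped in replicate 3 only. The skeletal muscle channel Clcn1 was listed at 0 in every file. A total of 3 fragments over the files would have given it 0.101 FPKM, a limit that covers counting error only. Of 4 skeletal muscle markers, 2 reached 1 FPKM in every file, beside 48.5% of all gene symbols. Ckm stood at 9.40 ± 2.59 FPKM and Myh4 was listed at 0. Exons of Clcn2 overlap genes on the opposite strand, Polr2h over 82 of 6022 bases and Fam131a over 85, and exons of Clcn4-2 overlap an antisense gene over 985 of 8575 bases.

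The detected members with isoforms from more than 1 start were Clcn3, Clcn4-2, Clcn5, Best2 and Lrrc8d. In the endosomal exchanger genes Clcn3, Clcn4-2 and Clcn5 an inner start carried most of the FPKM in every file, ahead of an outer one; another start of Clcn4-2 was listed at 0. For Clcn4-2 the inner start took 99.999%, 95.4% and 99.998% in replicates 1, 2 and 3. For Clcn5 it took 99.998%, 80.2% and 99.99%, and for Clcn3 67.5%, 87.3% and 52.2%, the last being close to an even split. The windows before the starts of Clcn4-2 and Clcn5 are printed here, in RefSeq sequence of GRCm38.p6, because the start with the larger share was the one with fewer CG pairs, a feature chosen after the values were seen. Each holds the 250 bases before a start on the minus strand, 5′ to 3′, and capitals mark matches, on either strand, to the TATA box motif TATAAA, to the CCAAT box motif and to the GC box motif GGGCGG.
Clcn4-2 inner start, chr7:7298837-7299086: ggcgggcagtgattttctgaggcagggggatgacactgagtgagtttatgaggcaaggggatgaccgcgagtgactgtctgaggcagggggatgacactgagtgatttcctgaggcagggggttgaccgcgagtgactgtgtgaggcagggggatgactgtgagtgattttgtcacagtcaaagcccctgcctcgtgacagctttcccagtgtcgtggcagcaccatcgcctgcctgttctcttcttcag
Clcn4-2 outer start, chr7:7299558-7299807: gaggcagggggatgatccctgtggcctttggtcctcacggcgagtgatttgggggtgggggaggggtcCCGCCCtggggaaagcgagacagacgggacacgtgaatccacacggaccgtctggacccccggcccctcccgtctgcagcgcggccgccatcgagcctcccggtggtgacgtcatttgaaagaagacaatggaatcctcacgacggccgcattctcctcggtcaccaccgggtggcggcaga
Clcn5 inner start, chrX:7188715-7188964: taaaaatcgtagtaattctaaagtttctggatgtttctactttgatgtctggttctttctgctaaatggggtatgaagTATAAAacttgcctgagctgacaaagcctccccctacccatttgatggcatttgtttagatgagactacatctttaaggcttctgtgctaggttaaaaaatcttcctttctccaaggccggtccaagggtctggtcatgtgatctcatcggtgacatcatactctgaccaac
Clcn5 outer start, chrX:7319359-7319608: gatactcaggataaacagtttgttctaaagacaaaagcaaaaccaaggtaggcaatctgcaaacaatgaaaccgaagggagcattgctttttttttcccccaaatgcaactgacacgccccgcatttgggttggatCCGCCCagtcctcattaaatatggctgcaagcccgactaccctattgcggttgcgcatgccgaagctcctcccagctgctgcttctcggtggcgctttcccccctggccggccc
The inner window of Clcn4-2 has 8 CG pairs and the outer 22, those of Clcn5 have 3 and 11, and those of Clcn3, not printed, have 7 and 27. The median over 32851 RefSeq windows of the same length was 6. In Lrrc8d, whose leading start was not the same in every file, the windows have 27 and 24. Best2, which was led by its inner start in every file, had no window in this comparison. TATAAA was found once in the 6 windows of the exchanger genes, in the inner one of Clcn5, and is in 12.4% of all windows. That match lies nearer to the far end of the window than to the start. Of the exchanger genes, GGGCGG was found once in each outer window and in no inner window, and is in 32.7% of all windows. CCAAT, which is in 33.8%, was found, of the same windows, only in the outer one of Clcn3. A match is a description of these letters and not a binding site. The starts are the annotated ends of isoforms, and whether transcription begins at them was not tested. A window before such a start, that of Clcn4-2 included, need not be a promoter. The whole inner window of Clcn3 lies within an annotated exon of the same gene in GENCODE M21, so a longer transcript may run through that start, and the inner window of Clcn4-2 overlaps the microRNA gene Mir5620.

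The bestrophins were almost entirely Best2, which encodes an anion channel known from colonic goblet cells. It stood at 25.3, 27.6 and 32.5 FPKM in replicates 1, 2 and 3 (chromosome 8, 85007203 to 85014531), or 99.7% ± 0.301 of the family. Best1, the gene of the retinal pigment epithelium, was listed at 0.138, 0.138 and 0 FPKM on about 2 fragments in all, and Best3 was listed at 0 in every file, with a limit of 0.133 FPKM. Best2 had the widest relative spread of the 15 genes that reached 10 FPKM, an SD of 12.9% of the mean. In the chi-square test with genes of several isoforms included, this spread was not told apart from sampling noise (unadjusted p 0.273, adjusted 0.9999).

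All 5 LRRC8 genes were detected, and 4 reached 1 FPKM in every file. Lrrc8a, the subunit without which the swelling-activated channel does not form (chromosome 2, 30237769 to 30263790), stood at 12.3, 11.6 and 12.8 FPKM and held 48.2% ± 3.92 of the family. Lrrc8d, a subunit that lets larger organic solutes pass (chromosome 5, 105699969 to 105815215), stood at 7.32, 9.46 and 8.16 FPKM. The deposited bounds of Lrrc8a and of each file's highest isoform of Lrrc8d were apart in replicate 1 and overlapped in replicates 2 and 3. In replicate 2 they were 9.81 to 13.3 FPKM for Lrrc8a and 7.72 to 11.1 FPKM for that isoform. Lrrc8e stood at 2.18 ± 0.152 FPKM, Lrrc8c at 1.59 ± 0.389 FPKM and Lrrc8b at 1.28, 1.68 and 0.300 FPKM. The partner subunits Lrrc8b, Lrrc8c, Lrrc8d and Lrrc8e summed to 13.2 ± 1.42 FPKM, or 1.08 ± 0.174 times Lrrc8a, and the ranges of that sum, 11.9 to 14.7 FPKM, and of Lrrc8a overlapped. GENCODE M21 annotates a second gene, Gm28035, that shares 2853 of the 4308 exon bases of Lrrc8a on the same strand, so its fragments cannot be separated from those of Lrrc8a.

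The tweety homologues were low but all present. Ttyh3 stood at 5.71, 4.94 and 5.46 FPKM, Ttyh2 at 4.18, 4.09 and 2.93 FPKM and Ttyh1 at 2.196, 1.02 and 2.67 FPKM. The listed values of Ttyh3 and Ttyh2 did not overlap in range, and Ttyh3 held 48.6% ± 1.16 of the family. The deposited bounds of Ttyh2 and of the highest isoform of Ttyh3 did overlap in every file. In replicate 1 they were 2.98 to 5.37 FPKM for Ttyh2 and 4.51 to 6.90 FPKM for that isoform. The order of these genes is therefore not settled by any single file. Of the accessory genes, Clns1a, whose protein helps to assemble the spliceosome's core particles and was once proposed as a swelling-activated channel, stood at 12.8, 12.5 and 11.2 FPKM (chromosome 7, 97696657 to 97720793). Bsnd, which encodes the accessory subunit barttin, was listed at 0 in every file, with a limit of 0.134 FPKM.

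Ordered by mean over all families, 12 of 38 pairs of neighbours above 0 had ranges that did not overlap. The first 4 places, Clic1, Clic5, Clca3b and Ano1, were each apart from the next in range, while Clca4a in the place after them overlapped Clic4. In replicate 3 the deposited bounds of Clca3b were 57.9 to 74.6 FPKM. They overlapped those of Clic5, 65.2 to 78.0 FPKM, and of the highest isoform of Ano1, 46.6 to 59.9 FPKM. In replicates 1 and 2 these bounds were apart. Best2 overlapped Clic6, and Clic6 overlapped Clcn4-2. Clcn3 overlapped Ano10 above it and Clcn2 below it, and Lrrc8a, Clns1a and Ano6 could not be ordered. None of the 18 members tested by the chi-square test differed between files after Benjamini-Hochberg adjustment, beside 0.057% of the 8771 genes tested, and the smallest adjusted p was 0.998. None of the 18 had an unadjusted p under 0.05 either, which 4.89% of all genes tested had. With genes of several isoforms included, the count after adjustment was 0 of 30 members, beside 9 of the 12629 genes tested.

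Isoforms behaved otherwise than gene sums. Of the 12 members with 2 or more isoforms and a mean of at least 1 FPKM, 6 did not have the same most abundant isoform in every file, against 37.9% of all such genes. For Ttyh3 the 4659-base isoform stood at 5.71, 4.94 and 0.00611 FPKM and the 4583-base isoform at 0.000261, 0.000292 and 5.45 FPKM, while the sum moved only between 4.94 and 5.71 FPKM. Replicate 3 thus gave to one isoform what replicates 1 and 2 gave to the other. Lrrc8d switched between replicate 1, where its 3923-base isoform had 7.32 FPKM, and replicates 2 and 3, where its 3907-base isoform had 9.42 and 8.04 FPKM. Ano7, Clca3a1, Ttyh1 and Clcn4-2 were the others. In 10 of the 12 members, an isoform's deposited 95% bounds did not overlap between a pair of files, as in 56.6% of all such genes, whereas this was so for none of the 18 members of 1 isoform at that level, beside 2.23% of such genes. Without replicate 3, the shallowest file, 2 of the 12 had a change of their most abundant isoform. Fewer files leave fewer chances of a change, and the share over all such genes was not worked out for that setting. Clcn4-2 was the only member with 2 isoforms of at least 20% in every file, against 12.4% of such genes, with its 4159-base isoform at 61.9%, 50.5% and 49.0% and its 4221-base isoform at 38.1%, 44.9% and 51.0%. Ano1 kept the same leading isoform, of 4601 bases, at 98.1%, 99.998% and 99.997%, although it is among the 10, since its 4592-base isoform had bounds of 0.267 to 1.65 FPKM in replicate 1 and an upper bound of 0.120 FPKM in replicate 2. The shares of starts given for Clcn3, Clcn4-2 and Clcn5 rest on the same isoform values, and Lrrc8d, which also has a pair of starts, gave 99.992%, 0.411% and 1.45% to its outer one. Best2 gave 14.6% and 10.4% to its outer start in replicates 2 and 3 and 0.000265% in replicate 1.

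**Figure D4:**
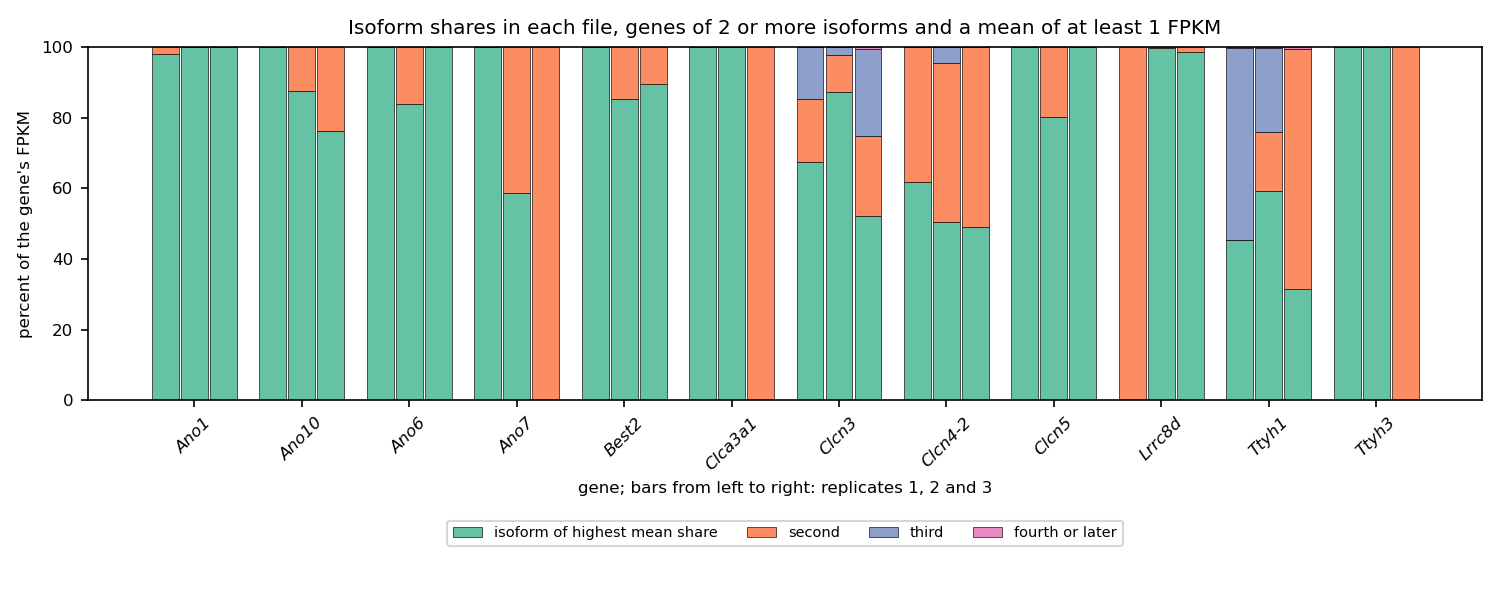
Share of each isoform in the gene's FPKM for the 12 members with 2 or more isoforms and a mean of at least 1 FPKM, with bars for replicates 1, 2 and 3 from left to right and colours by order of mean share. Ttyh3, Clca3a1 and Ano7 change colour in replicate 3 and Lrrc8d in replicate 1, while Ano1 and Clcn5 keep the same leading isoform throughout.

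The members were set beside the other genes of colonic chloride transport. For the counts that follow, 48.5% of all gene symbols reached 1 FPKM in every file and 29.9% were listed at 0. Cftr, the cyclic nucleotide regulated channel of the apical membrane, stood at 15.2, 14.5 and 14.7 FPKM, and Ano1 was 3.49 ± 0.170 times as high. These files cannot say whether they are in the same cells. Of 4 other chloride channel genes listed, Cftr included, 3 reached 1 FPKM in every file, the remaining ones being Clcc1 at 12.9 ± 1.42 FPKM and the acid-activated channel Tmem206 at 3.24 ± 0.179 FPKM, and Slc26a9 was listed at 0. All 6 genes of basolateral chloride entry and its driving force did, led by the sodium pump subunit Atp1b1 at 742 ± 1.01 FPKM, with the chloride cotransporter Slc12a2 at 59.8 ± 1.18 FPKM. Of 8 genes of chloride absorption and exit, 6 reached 1 FPKM in every file, led by the exchanger Slc26a3 at 215 ± 1.56 FPKM. Those that did not were Slc26a6 at 0.864 ± 0.123 FPKM and Slc9a3 at 0.227 ± 0.197 FPKM. None of 24 glycine and GABA receptor subunit genes, the ligand-gated chloride channels of neurons, reached 1 FPKM in every file, and 11 were listed at 0; the highest were Gabra3 at 1.22 ± 0.431 FPKM and Glrb at 0.906 ± 0.378 FPKM. Among partners of the members, 7 of 8 reached 1 FPKM in every file. Ostm1, the subunit that Clcn7 needs, stood at 6.78 ± 0.485 FPKM, so that Clcn7 was 0.796 ± 0.0871 times as high. Hepacam, a partner of Clcn2 in glia, stood at 1.06 ± 0.229 FPKM. Prmt5 and Wdr77, which work with Clns1a, stood at 12.1 ± 1.76 and 7.65 ± 1.33 FPKM, and the kinase genes Wnk1, Stk39 and Oxsr1, which control chloride cotransporters, at 15.02 ± 0.831, 15.1 ± 0.973 and 11.9 ± 0.907 FPKM.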

How the data were processed

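Polyadenylated RNA of mouse distal colon was sequenced from TruSeq libraries, per the labels' protocols. FPKM values per RefSeq isoform, with 95% confidence bounds, were deposited by the authors in 1 Cufflinks table per sample, per the file headers; the read coverage signal deposited beside them was not used. The submitters' processing notes list Cufflinks 2.2.1, Bowtie2 2.3.4.3 and TopHat2 2.1.1 without settings. They name GRCm39, but for 43 of the 44 genes the start or end lay within 1000 bases of RefSeq on GRCm38.p6, so positions are given as GRCm38, counted from 1. The names of the 3 files share the same index sequence and lane and differ in a running number.

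Isoform FPKM were summed per gene symbol with no rescaling. The upper bound less the FPKM was read as 2 standard errors, which gives the FPKM worth of 1 fragment. Its inverse, regressed on length in genes of 1 isoform (Theil-Sen), gave the depth. Of these genes with up to 30 fragments, 64.1% to 64.3% of the values lay within 0.01 of a whole number. Genes of 1 isoform with a mean of at least 1 FPKM were compared between files by a chi-square test on these sampling variances, with Benjamini-Hochberg adjustment at 0.05, after a test on simulated data. For genes listed at 0, the limit is what 3 fragments in total would give. Intervals and limits cover counting error only. Stretches of at least 100 bases at 97% identity were sought with BLAST+ 2.17.0 in GENCODE M21 transcripts, and 12 of the 44 genes had such a match to another gene, 14 an exon overlap on the opposite strand. The named genes are all members at or above 10 FPKM, the first and second of each family, members listed at 0, members with 2 isoforms of at least 20%, and, from lists of chloride transport genes, the highest of each list and Cftr; other members are given by mean and SD. Members and lists were chosen with earlier results of these data known. Other genes of these lists that are named were chosen after their values were seen. Alternatives covered thresholds, TPM, the highest isoform, a depth-weighted mean, the pseudocount, the genes tested and each replicate left out. No protein sequences were used here. Some members are counted in the totals but not reported here. SciPy 1.17.1, pandas 2.3.3 and numpy 2.4.6 were used under Python 3.11.15, and figures were drawn with matplotlib 3.10.9.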

Additional observations from a re-analysis of the deposited data

How the results depend on the processing

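No paired analysis was possible because the 3 samples form 1 group. Of 128 values under alternatives, 113 stayed within the spread between files or, for counts, within 1.5 times. The count of members at 1 FPKM or more in every file, 29, became 17 at a threshold of 5 FPKM. The median of the members, 2.43 FPKM, became 5.68 after rescaling to TPM and 11.7 among the members at or above 1 FPKM only, and ranged from 2.302 to 2.59 with each replicate left out. When only a gene's highest isoform was taken, the family shares were 9.33% for CLC, 45.9% for CLIC, 4.06% for LRRC8 and 17.6% for CLCA genes, and the main members' shares of their families were 22.4% for Clcn4-2, 53.6% for Ano1 and 52.1% for Ttyh3; this was the only one of 48 combinations of family and setting in which the leading member changed, from Clcn4-2 to Clcn2. The count of members with 2 isoforms of at least 20% in every file, 1, became 2 at a threshold of 10%, and ranged from 1 to 2 with each replicate left out. The count of members whose most abundant isoform changed, 6, ranged from 2 to 6 with each replicate left out, a check added after the data were seen. It has no share over all genes beside it. Members with a mean under 1 FPKM rest on at most 23.0 fragments over the 3 files, which limits the precision of their order.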
